A study of Mus musculus with 6 samples.

Results

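The genes described here encode the contractile units of striated muscle (the sarcomeres), the proteins that move calcium in muscle cells, and the natriuretic peptides of the heart. They were taken as a list of 43 gene symbols, and all 43 had at least 1 probe set on the array, 93 probe sets in all, out of 18193 genes and 45037 probe sets measured. Mouse embryoid bodies, aggregates in which embryonic stem cells differentiate, were made from the D3 stem cell line in medium without leukemia inhibitory factor and kept in rotary culture. The 3 tested samples came from bodies that held gelatin-coated microspheres loaded with retinoic acid (RA), a ligand of nuclear receptors that is made from vitamin A. The 3 control samples came from bodies whose gelatin-coated microspheres carried the dye CellTracker Red. Every sample was taken at 10 days and measured as total RNA of whole bodies on 1 Affymetrix array. Several ratios of microspheres to cells and several rotary speeds were used in the study, and the labels do not say which applied to each sample. All bodies came from a single stem cell line, and the labels do not say that the triplicates were separate cultures, so the p-values rest on a spread between arrays that could be technical only.

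In a sarcomere, myosin of the thick filament pulls on actin of the thin filament, and troponin and tropomyosin on the thin filament set when calcium allows it. Calcium is released from the sarcoplasmic reticulum through ryanodine receptors, is bound there by calsequestrin and is pumped back by the ATPase SERCA, which phospholamban and sarcolipin hold in check. The early heart expresses Myh6, Myl7, Myl4, Actc1, Tnnt2 and the slow skeletal troponin Tnni1 together, and embryoid bodies often form beating areas that express the same genes. An array of a whole body cannot tell fewer muscle cells from less RNA per cell.

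Levels are given as log2(intensity + 16) after quantile normalization, a scale on which an intensity of 0 is 4. The 40th percentile of all probe sets, 5.74 on this scale, is used as a mark of dim signal, and a fold against a group below it is open to background. On the arrays as deposited the median intensity lay between 61.7 and 65.5 with RA microspheres and between 41.4 and 63.7 with control microspheres. RA array 1 had a ratio of 3-prime to 5-prime Gapdh signal of 34.0, against 3.06 to 4.74 elsewhere, and this ratio goes up as RNA is degraded. Of the 43 genes, 40 had a mean level over the 6 arrays above 5.74, and Des, Lmod2 and Sln did not.

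Many filament and Z-disc genes of heart muscle were lower in bodies with RA microspheres, by 1.60 to 69.2 times where called, and others did not pass the test. A gene is called here when its limma adjusted p lies below 0.05, with adjustment over all 18193 genes and each gene represented by its brightest probe set. Of the 43 genes 21 were called lower and 0 higher, where 11.1% of all genes were called lower and 10.0% higher. A called fall of at least 2-fold was found for 19 of the 43 and for 4.09% of all genes. The median log2 difference was -0.72 over the 43 genes and 0.01 over all genes. For 28 of the 43 genes every RA array lay on one side of every control array, as it did for 36.6% of all genes. With no scaling between arrays 16 of the 43 were called lower, and the calls of Myh7, Tpm1, Actn2, Nexn and Myoz2 were lost. Over all genes, falls made up 30.3% of the calls without scaling and 52.5% with it. Without scaling the median difference of all genes was 0.22. With RA array 1 and control array 3 both left out, 16 were called lower as well, and Nebl, Actn2, Des, Myoz2 and Ryr2 were lost.

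**Figure D1:**
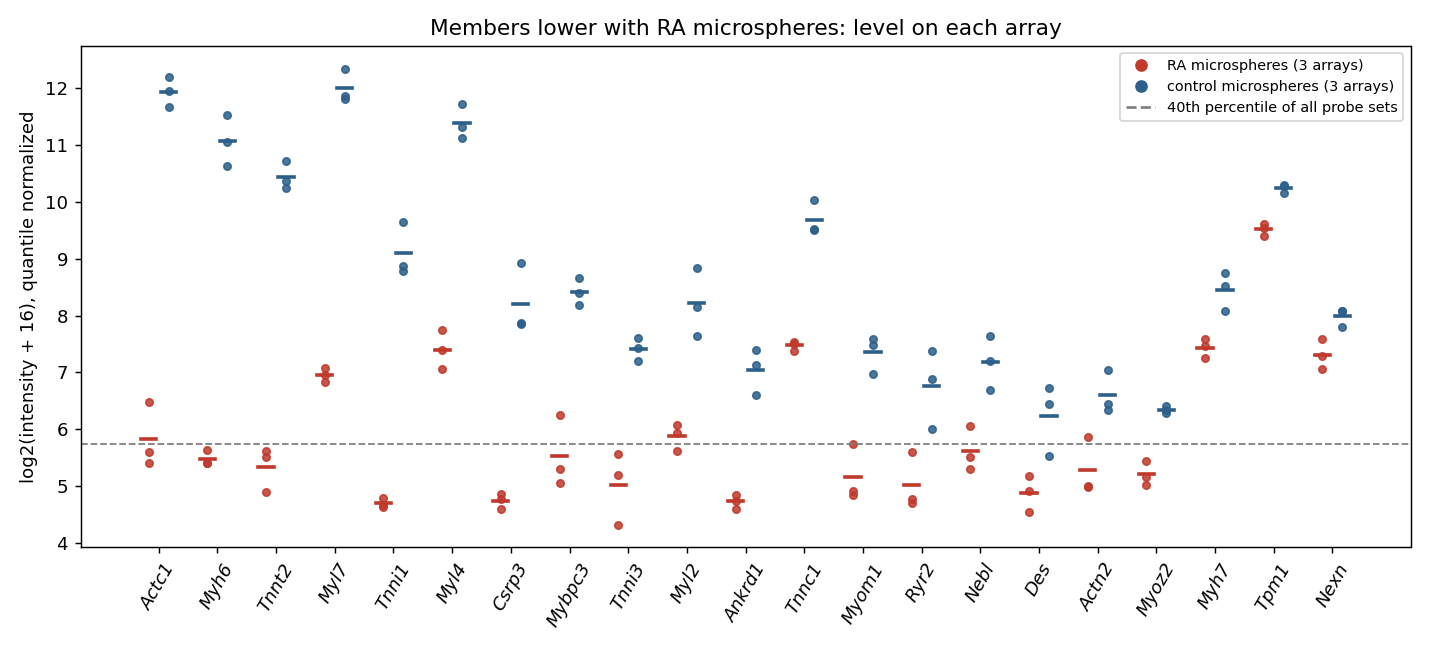
Level of the 21 called genes on each of the 6 arrays (vertical axis, log2(intensity + 16)), RA arrays in red and control arrays in blue, with bars at the group means and a dashed line at the 40th percentile of all probe sets. The RA and control arrays do not overlap for any of the 21 genes, which is no further support because the test on these same arrays selected them. For 13 of the 21 the RA mean lies below the dashed line, as it does for 310 of the 2015 genes called lower in all.

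Thick filament and M-band genes were called lower in 7 of 10 cases, where 11.1% of all genes were. For 3 of these 7 the RA mean lay below the dim mark. Myh6, which encodes the fast alpha heavy chain of heart myosin, was at 5.40, 5.41 and 5.63 with RA, against 11.53, 10.63 and 11.05 on the control arrays. All RA arrays were thus near background and all control arrays among bright genes, a difference of 48.2 times (log2 -5.59 ± 0.20, SE, limma adjusted p = 9.77e-08). The atrial regulatory light chain gene Myl7 was at 6.83, 6.96 and 7.08 with RA, against 12.34, 11.81 and 11.87 in control bodies. It remained above the dim mark with RA and was 33.2 times lower (log2 -5.05 ± 0.14, SE, limma adjusted p = 2.27e-08). Myl4, the essential light chain of atrial and embryonic muscle, was at 7.40, 7.05 and 7.75 with RA, against 11.73, 11.12 and 11.32 in controls, and it was 15.9 times lower.

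Of the myosin genes known from the ventricle and from slow muscle, Myl2 and Myh7 were called lower and Myl3 was not. Myl2, the ventricular regulatory light chain, was at 5.94, 5.61 and 6.08 with RA, against 8.84, 7.65 and 8.16 in controls. The groups were apart by more than 1 unit on every array, and the fall was 5.05 times (limma adjusted p = 0.000409). The slow beta heavy chain gene Myh7 was at 7.47, 7.25 and 7.59 with RA, against 8.74, 8.09 and 8.51 in controls, which is 2.02 times lower (limma adjusted p = 0.00315). Myl3, the ventricular essential light chain, did not pass, with a log2 difference of -0.42 and a 95% interval from -0.83 to -0.01 (limma adjusted p = 0.147). The Myh6 and Myh7 coding sequences are closely related, and 2 probe sets annotated to both were left out. Of the structural partners of myosin, Mybpc3 (cardiac myosin binding protein C) was 7.36 times and the M-band gene Myom1 4.56 times lower. The RA means of both lay below the dim mark. Myom2, of the same band, differed by 0.44 (interval -0.15 to 1.03) and did not pass.

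Thin filament genes were called lower in 7 of 10 cases, where 11.1% of all genes were. For 4 of these 7 the RA mean lay below the dim mark. Actc1, which encodes cardiac alpha-actin, was at 5.41, 5.60 and 6.47 with RA, against 12.20, 11.67 and 11.94 in controls. It was 69.2 times lower (log2 -6.11 ± 0.25, SE, limma adjusted p = 2.17e-07), with RA array 3 the highest of its group. Tnnt2, the cardiac troponin T that ties troponin to tropomyosin, was at 5.51, 5.62 and 4.90 with RA, against 10.73, 10.37 and 10.24 in controls, and it was 34.3 times lower. Tnni1, the inhibitory troponin of slow skeletal and embryonic heart muscle, was at 4.79, 4.64 and 4.67 with RA, against 9.64, 8.78 and 8.87 in controls, and it was 21.1 times lower. The adult cardiac form Tnni3 was at 5.19, 5.56 and 4.32 with RA, against 7.60, 7.20 and 7.43 in controls. Its fall of 5.22 times started from a lower control level, nearer to the floor of the scale. Tnnc1, the calcium-binding troponin of heart and slow muscle, was at 7.51, 7.38 and 7.53 with RA, against 10.04, 9.50 and 9.52 in controls. It was 4.63 times lower and stayed well above the dim mark with RA. Nebl, which encodes the nebulin relative nebulette, was 2.94 times lower. The tropomyosin gene Tpm1 was 1.65 times lower, Tpm2 differed by 0.23 (interval 0.03 to 0.44, limma adjusted p = 0.111), and Tnnt1 (-0.43) and Lmod2 (-0.37) did not pass.

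These folds depend on the pseudocount of 16 where the RA level is near background. With a pseudocount of 1 Actc1 was 96.2 times lower and Myh6 72.5 times, and with one of 64 they were 37.4 and 23.7 times lower. Tnni1 ranged from 8.07 to 48.9 times and Tnnt2 from 16.2 to 55.4 times between the same settings. Actc1 and Myl2, whose RA means lay just above the dim mark, also moved, Myl2 between 3.25 and 6.46 times. Genes with RA means over 7 moved less: Myl4 from 12.5 to 17.4 times, Tnnc1 from 3.86 to 4.97 times and Tpm1 from 1.61 to 1.66 times. The 21 calls were kept with both pseudocounts.

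The promoters of the 3 genes with the deepest falls (with each pseudocount tried) among those with a single promoter entry are shown, because these genes moved together and promoters of heart muscle genes are known for CArG boxes, to which serum response factor binds. RefSeq sequences of the GRCm38.p6 build, from 250 bases before to 50 bases after the annotated start, were found for 36 of the 43 genes (49 windows, since some genes have several, which can overlap). Capitals mark 3 motifs on either strand: the CArG box, TATAAA, and CATTCC, the core of the MCAT element bound by TEAD factors. The marked TATAAA begins 33 bases after the annotated start in Actc1 and 1 base after it in Myh6, so neither lies upstream of that start. The CArG boxes begin 47 bases (Actc1) and 61 bases (Myl7) before it. A CArG box reads alike on both strands, so its matches there overlap. The MEF2 site was searched on both strands as well and is absent from these 3 windows. The Actc1 window is chr2:114052826-114053125 (minus strand), the Myl7 window chr11:5898733-5899032 (minus strand) and the Myh6 window chr14:54966558-54966857 (minus strand).
Actc1: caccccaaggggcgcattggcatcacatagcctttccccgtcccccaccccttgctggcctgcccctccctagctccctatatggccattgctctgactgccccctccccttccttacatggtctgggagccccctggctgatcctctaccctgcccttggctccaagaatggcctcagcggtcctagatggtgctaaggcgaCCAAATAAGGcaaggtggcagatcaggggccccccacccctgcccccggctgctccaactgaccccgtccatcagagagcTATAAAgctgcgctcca
Myl7: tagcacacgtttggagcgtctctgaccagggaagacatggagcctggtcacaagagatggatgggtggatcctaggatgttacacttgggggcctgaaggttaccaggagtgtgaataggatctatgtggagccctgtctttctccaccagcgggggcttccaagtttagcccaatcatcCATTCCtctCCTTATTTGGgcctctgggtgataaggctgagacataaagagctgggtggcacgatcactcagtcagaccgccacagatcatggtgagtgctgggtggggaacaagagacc
Myh6: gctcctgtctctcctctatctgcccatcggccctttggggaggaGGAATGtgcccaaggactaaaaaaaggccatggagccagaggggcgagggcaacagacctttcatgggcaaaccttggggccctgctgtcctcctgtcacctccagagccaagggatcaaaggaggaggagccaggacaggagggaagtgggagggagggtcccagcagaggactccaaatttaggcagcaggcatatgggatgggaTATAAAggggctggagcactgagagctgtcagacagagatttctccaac

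A CArG box was present in 4 of 28 windows of genes called lower (14.3%; Actc1, Myl7, Myom1 and Nebl), in 3 of 21 windows of genes not called (14.3%; Ldb3 and Myl3) and in 1.63% of all 32851 promoter windows. By gene this is 4 genes called lower and 2 not called, and the difference between them was not tested. CATTCC, in either orientation, was present in 8 of 28 windows of genes called lower (28.6%), in 4 of 21 of those not called (19.0%) and in 14.7% of all windows. The MEF2 site was found in 2 of 28, in 2 of 21 and in 3.19%, and TATAAA in 3 of 28, in 5 of 21 and in 13.6%. A match is a description of letters in the window and was not tested for binding.

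Z-disc, intermediate filament and chaperone genes were called lower in 6 of 11 cases, where 11.1% of all genes were. For 5 of these 6 the RA mean lay below the dim mark. Csrp3, a muscle LIM protein of the Z-disc, was at 4.77, 4.60 and 4.86 with RA, against 8.92, 7.86 and 7.85 in controls. The RA arrays were close together and control array 1 was about 1 unit above the other controls, for a fall of 11.1 times (limma adjusted p = 5.70e-05). Ankrd1, an ankyrin repeat protein of the titin complex, was at 4.75, 4.60 and 4.84 with RA, against 7.39, 7.13 and 6.61 in controls, and it was 4.96 times lower. Smaller falls were found for Des (desmin, 2.56 times), Actn2 (the alpha-actinin of the Z-disc, 2.51 times), Myoz2 (a calsarcin, 2.19 times) and Nexn (nexilin, 1.60 times). The calls of 3 of them did not hold in every fit that left out 1 array, though the difference stayed below 0 each time. That of Actn2 was lost without RA array 1 or 3 or control array 1 (-1.18 to -1.11), and that of Nexn without RA array 2 or 3 or control array 1 or 2 (-0.66 to -0.54). The call of Des was lost without RA array 2 or 3 or control array 1 or 3 (-1.36 to -1.11). Ldb3 (-0.53, interval -0.99 to -0.07), Tcap (-0.46), Smyd1 (-0.39), Xirp1 (0.44) and Hspb7 (0.55) did not pass.

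Of 8 calcium handling genes 1 was called lower, which is close to the share of 11.1% over all genes. Atp2a2 and Pln, whose brightest probe sets did not pass but which have other sets called lower, are described below. Ryr2, the calcium release channel of the heart, was at 4.71, 5.60 and 4.76 with RA, against 7.37, 6.01 and 6.88 in controls. RA array 2 and control array 2 came closest to each other without overlap, and the fall was 3.32 times (log2 -1.73 ± 0.40, SE, limma adjusted p = 0.0117). Casq1 and Casq2, the skeletal and cardiac calsequestrins, differed by -0.65 (interval -1.32 to 0.03) and 0.07 (interval -0.53 to 0.66). Trdn (triadin), which anchors calsequestrin to the release channel, differed by -0.73 (interval -1.56 to 0.11), and Cacna1c, the L-type calcium channel, by -0.27 (interval -0.95 to 0.41). Sln, which encodes sarcolipin, had means of 4.67 ± 0.19 with RA and 4.67 ± 0.09 in controls (SD, n = 3), both close to the floor, so these arrays could not show a fall. Whether the role groups differed in their change was not tested.

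The 2 natriuretic peptide genes, whose products the heart releases under stretch, and the 2 genes of muscle energy and oxygen supply were not called. Nppa, mainly atrial, was at 6.62, 6.51 and 5.88 with RA, against 7.14, 7.11 and 6.82 in controls. The groups did not overlap, but the difference of -0.69 (interval -1.29 to -0.09) did not pass (limma adjusted p = 0.105). Nppb was at 7.14, 7.03 and 6.99 with RA, against 7.40, 6.87 and 6.94 in controls, with overlapping groups and a difference of -0.01 (interval -0.49 to 0.47). Mb (myoglobin) differed by -0.87 (interval -1.62 to -0.12, limma adjusted p = 0.0995) and passed only without RA array 3 (-1.17). Ckm, the muscle creatine kinase, differed by -0.10 (interval -0.64 to 0.43).

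**Figure D2:**
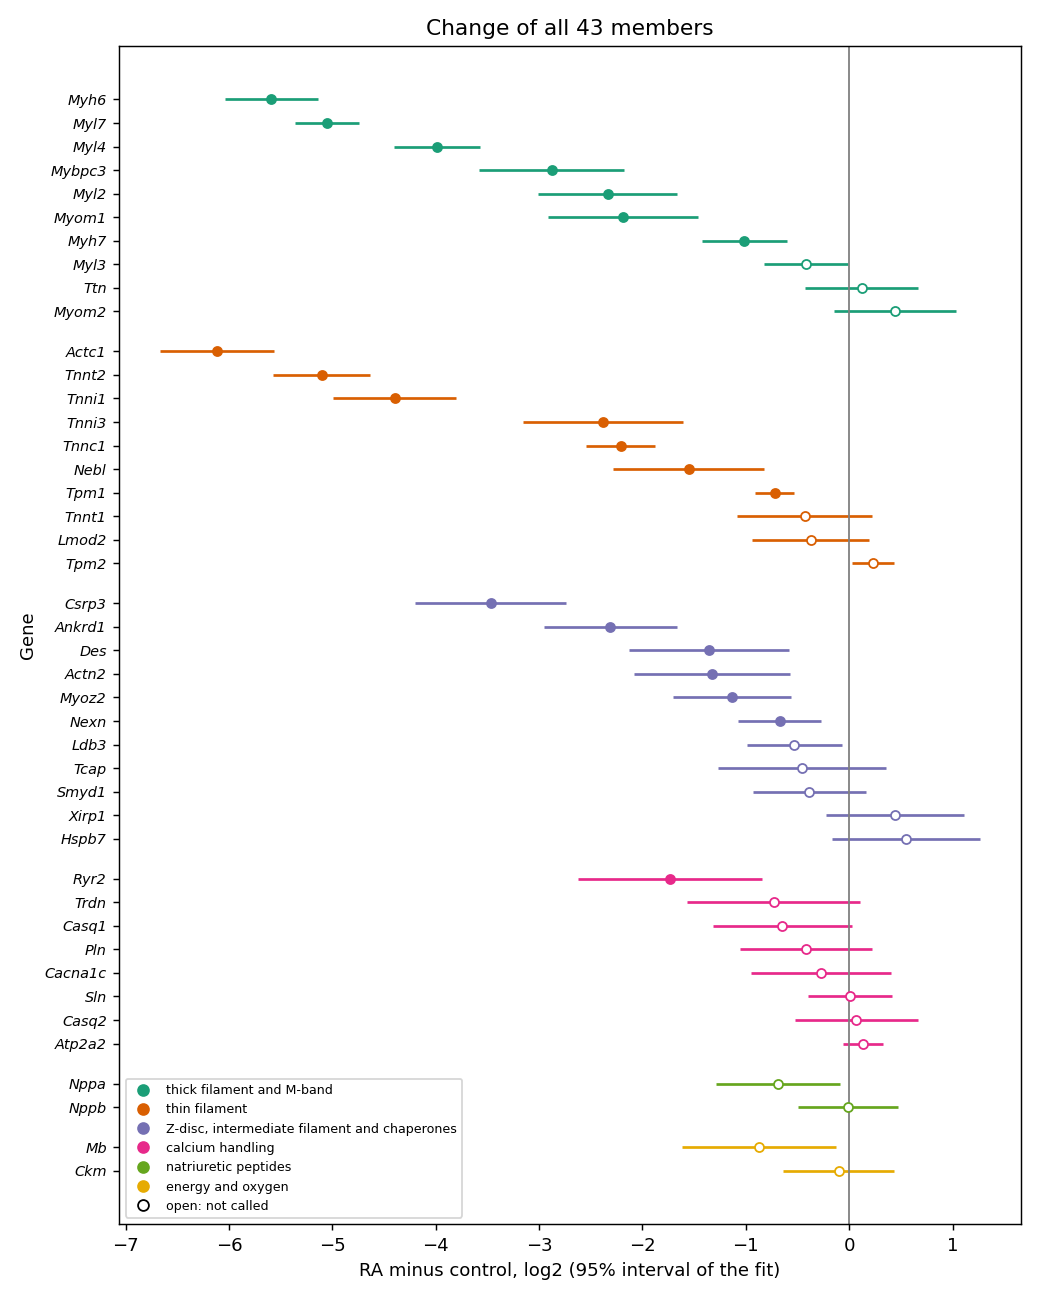
RA minus control on the log2 scale (horizontal axis) for each of the 43 genes, grouped by role, with the 95% interval of the fit. Filled points passed the test and open points did not; Actc1 lies at -6.11, Myh6 at -5.59, Tnnt2 at -5.10 and Myl7 at -5.05, an order that depends on the pseudocount, and no filled point lies above 0.

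Calls of a fall were more frequent at higher control levels, both among the 43 genes and among all genes. The control mean is one side of the difference tested, so sorting by it favours falls at high levels by itself. Of 10 genes with a control mean over 9, 8 were called lower, where 29.7% of all genes at that level were, and the exceptions were Atp2a2 and Tpm2. Between 7 and 9 the count was 9 of 13, where 14.7% of all genes were. Between 5.74 and 7 it was 4 of 17, where 4.46% of all genes were. Below 5.74 it was 0 of 3, namely Sln, Lmod2 and Hspb7, where 0.67% of all genes were. A gene near the floor has little room to fall on this scale, so the dim genes that did not pass are not shown to be unchanged.

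Atp2a2, which encodes the calcium pump SERCA2, was the brightest gene not called, and its probe sets did not move alike. Its transcripts end in alternative last exons, which give a heart and slow muscle form and a widely expressed form, and the annotation used here does not say which form a probe set reads. The brightest set was at 11.03, 10.76 and 10.92 with RA, against 10.75, 10.69 and 10.86 in controls, with overlapping groups (0.14, interval -0.06 to 0.33). The second-brightest set was at 8.55, 8.64 and 8.60 with RA, against 10.66, 10.15 and 10.33 in controls, which is 3.44 times lower (limma adjusted p = 1.17e-05 over all probe sets). The third was at 7.53, 7.59 and 7.28 with RA, against 9.74, 9.26 and 9.47 in controls, which is 4.07 times lower (limma adjusted p = 1.39e-05 over all probe sets). In both of these sets every RA array lay more than 1 unit below every control array. The other 3 sets did not pass, and the mean of all 6 sets was called lower (-0.51).

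Other genes split in the same way when each probe set was tested by itself. Of 93 probe sets 29 were called lower and 1 higher, where 6.13% and 5.88% of all probe sets were. At least 1 probe set was lower for 25 of the 43 genes, and 4 of these had a brightest set that did not pass: Atp2a2, Pln, Ttn and Hspb7. For Pln, which encodes phospholamban, the second-brightest of 3 sets was at 4.56, 4.40 and 5.59 with RA, against 6.96, 6.58 and 6.38 in controls (3.46 times lower, limma adjusted p = 0.0125). Its brightest set differed by -0.42. For titin (Ttn), the giant spring of the sarcomere, 1 of 6 sets was called (the third in brightness, 4.45 times lower), and its RA arrays lay at 5.44, 4.42 and 4.37, against 7.64, 6.21 and 6.84 in controls. The brightest Ttn set differed by 0.12 with overlapping groups. For Hspb7, a small heat shock protein of muscle, the second-brightest set was 3.23 times lower.

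Both tropomyosin genes, which make muscle and non-muscle forms by splicing, differed between their probe sets. Of Tpm1, the second-brightest set was at 8.39, 7.96 and 8.12 with RA, against 10.38, 9.83 and 9.86 in controls, which is 3.65 times lower, while the brightest set was 1.65 times lower. Of Tpm2, the second-brightest set was at 8.58, 8.43 and 8.58 with RA, against 7.92, 8.04 and 7.38 in controls, a rise of 0.75 on the log2 scale (limma adjusted p = 0.0180) and the only probe set of the 93 called higher. For Tnnt2 the 2 bright sets gave 34.3 and 30.4 times lower, and for Ankrd1 both sets were lower. Of the 22 genes with several probe sets 12 had sets with different calls, and 0 had calls in both directions. Which exons or ends the sets read was not tested. The other Myh6 set (0.40), the other Myl4 set (-0.02) and the third Tnnt2 set (0.25) did not pass. Averaging all sets of a gene therefore gave smaller falls, of -2.59 for Myh6, -2.00 for Myl4 and -3.26 for Tnnt2, against -5.59, -3.99 and -5.10 for their brightest sets. With this averaging 20 genes were lower and 1 (Tpm2, 0.41) higher, with Nebl (-0.45), Des (-0.61) and Ryr2 (-0.62) lost and Pln (-0.93) and Atp2a2 gained.

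**Figure D3:**
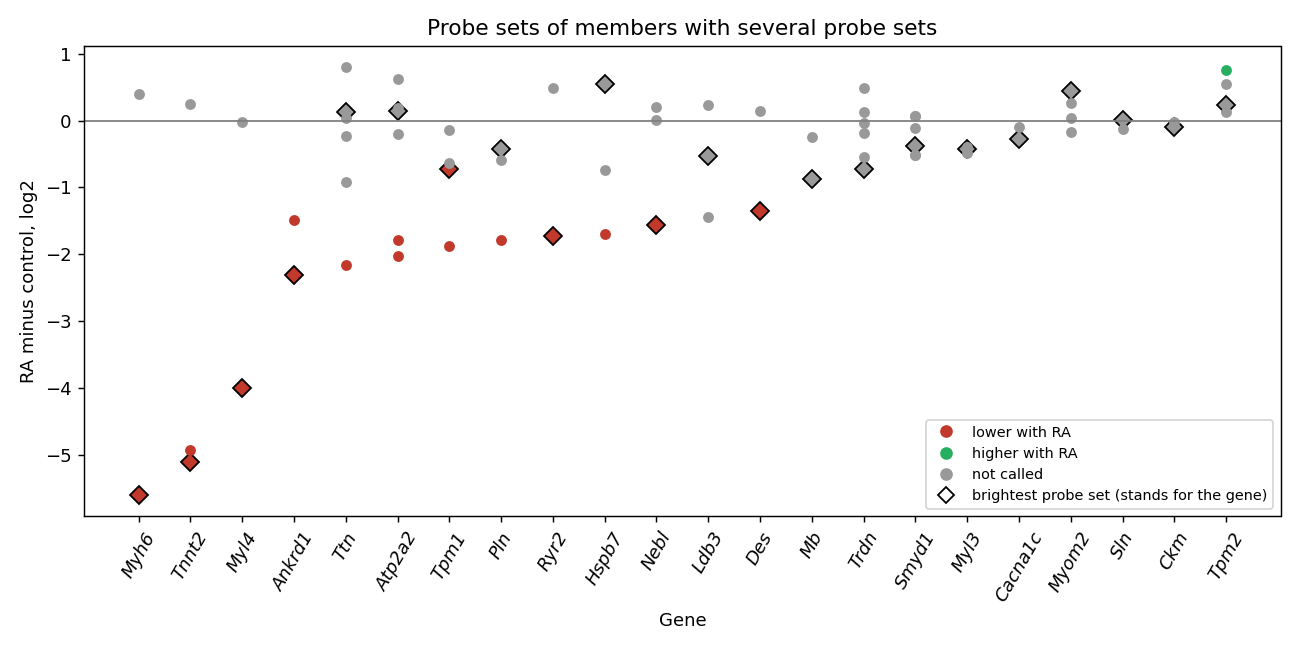
RA minus control on the log2 scale (vertical axis) for every probe set of the 22 genes with several, in red where lower, green where higher and grey where not called; the diamond is the brightest set, which stands for the gene. In Ttn, Atp2a2, Pln and Hspb7 a red point lies below a grey diamond.

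The control arrays differed among themselves in these genes, and whether this lay in the bodies or in the arrays was not tested. The genes counted here are not independent measurements of an array. Control array 1 was the highest control array for 18 of the 21 called genes (85.7%), where it was highest for 34.1% of all genes called lower. The median deviation of the 21 genes from the control mean was 0.34 on control array 1, -0.27 on control array 2 and -0.06 on control array 3. On the RA arrays it was 0.02, -0.11 and 0.06. The summed normalized intensity of the 21 genes was 1864, 1644 and 1913 with RA, against 23870, 16048 and 18169 in controls. The 21 genes were selected as lower on these same arrays, so their lower sum with RA follows from the selection. The 4 genes Actc1, Myl7, Myh6 and Myl4 were the brightest of the 21 in controls and had large falls. They made up 16.2% to 22.2% of that sum with RA and 66.0% to 67.9% in controls, which follows from those falls. The summed intensity of 11 cardiac transcription factor genes was 2375, 2238 and 2269 with RA and 5221, 5254 and 5182 in controls. Hand2, the brightest of the 11 in controls and so the largest single part of that sum, was at 11.29, 11.43 and 11.33 there. Taken singly, Hand1, Tbx20, Tbx5, Myocd, Gata4 and Isl1 were highest among controls on control array 1. Hand2, Hopx, Nkx2-5, Mef2c and Irx4 were not. The sums of the smooth muscle and endothelial markers described below were also highest on control array 1 (8591 and 1223). That of the fibroblast and epicardial markers was highest on control array 2 (14563). Without control array 1, 18 of the 43 genes were called lower.

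**Figure D4:**
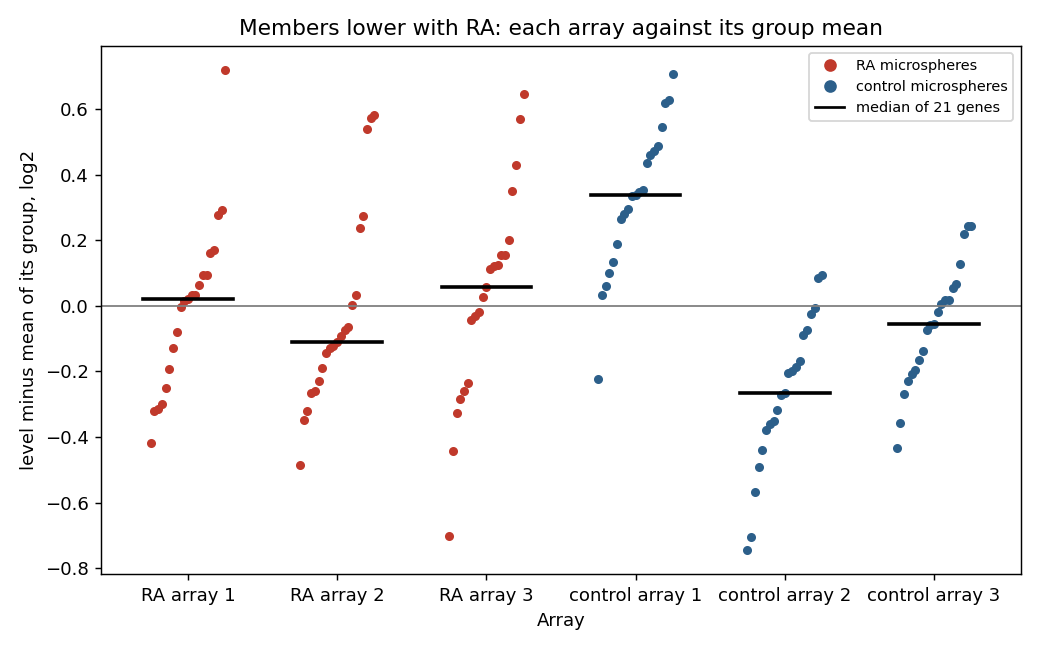
Level of each of the 21 called genes minus the mean of its group (vertical axis, log2) on each array, sorted within an array, with black bars at the medians. The points of control array 1 lie mostly above 0 (median 0.34) and those of control array 2 mostly below it (median -0.27).

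Related muscle genes outside the list gave a mixed picture, and where a list had more calls than are named, those with the smallest p are given. For the counts of these and the following lists, 11.1% of all genes were called lower and 10.0% higher. The shares called lower in the skeletal-type, further calcium handling and channel lists lay near that of all genes. Of 22 measured heart or general sarcomere and Z-disc genes 8 were lower and 1 higher (median -0.35). Cryab, a chaperone of desmin, was 5.22 times, the popeye gene Bves 4.15 times and the myosin chaperone gene Unc45b 5.37 times lower, and Dmd (dystrophin) was 1.50 times higher. Of 21 skeletal-type sarcomere genes 2 were lower and 0 higher (median 0.01), namely Acta1 (skeletal actin, 2.88 times) and Mylpf (fast light chain, 1.65 times). In 12 of these 21 both group means were dim. Acta1, Acta2 and Actc1 encode near-identical actins, and whether their probe sets read one another was not tested. Of 20 further calcium handling genes 3 were lower and 1 higher (median -0.30). Sri (sorcin) was 1.83 times, the T-type channel gene Cacna1h 2.13 times and Fkbp1b, which binds the release channel, 3.17 times lower, and the junctophilin Jph1 was 2.23 times higher. The RA means of Bves, Unc45b, Acta1 and Fkbp1b lay below the dim mark.

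Among 9 cardiac channel and connexin genes 1 was lower and 2 higher (median -0.04). Kcnj3, an inward rectifier channel of atrium and neurons, was 4.86 times higher from a dim control mean of 5.56, the main gap junction gene of working heart muscle, Gja1, was 1.50 times higher and Gjc1, another connexin, 1.41 times lower. Of 10 muscle isoforms of energy metabolism 4 were lower and 1 higher (median -0.41), with Cox6a2 1.76 times, Ldhb 1.29 times and the glucose transporter gene Slc2a4 2.21 times lower and the fatty acid binding protein gene Fabp3 2.16 times higher. Of 15 non-muscle relatives and cytoskeletal genes 4 were lower and 0 higher (median -0.03), namely Vim (vimentin, 3.20 times), Myh10 (1.82 times), Actn4 (1.64 times) and Tpm4 (1.23 times). The cytoplasmic actins Actb and Actg1 differed by -0.43 and -0.24 and did not pass. The limma adjusted p of the called genes in these 6 lists ran up to 0.0411.

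Markers of other cell types moved in the same bodies. Of 9 smooth muscle genes 4 were lower and 0 higher (median -0.63), namely Acta2 (14.6 times), Tagln (11.4 times), Myl9 (7.45 times) and Cald1 (3.06 times). Myh11 (0.55), Mylk (0.51), Smtn (-0.03), Lmod1 (-0.10) and Cnn1 (-0.63) did not pass. The summed intensity of the 9 genes, which weighs the bright Acta2 and Cald1 most, was 1610 to 1836 with RA and 7181 to 8591 in controls. Of 7 endothelial genes 6 were lower, with Cldn5 at 10.2 times, Tek at 4.07 times and Tie1 at 2.79 times, and summed intensities of 164 to 352 with RA and 1054 to 1223 in controls. The RA means of Cldn5, Tek, Tie1 and Tagln lay below the dim mark. Of 7 fibroblast and epicardial genes 5 were lower, with Postn at 15.0 times, Col3a1 at 5.22 times and Tcf21 at 3.08 times, and sums of 2306 to 2408 with RA and 13256 to 14563 in controls. The part of these cell types in the falls of Actc1, Tpm1 and Des, which smooth muscle can also express, was not tested. Of 6 skeletal muscle regulators 0 were lower and 2 higher (Pax3 2.30 times and Pax7 1.77 times, both also neural genes), while Myod1, Myog, Myf5 and Myf6 did not pass. Their sums were 152 to 313 with RA and 118 to 185 in controls. In 4 of these 6 genes, Pax7 among them, both group means were dim, and the control mean of Pax3 was dim too.

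Of 11 cardiac transcription factors 5 were lower and 1 higher (median -0.48). Hand2 was 8.12 times, Hand1 3.40 times, Tbx20 2.36 times, Tbx5 3.85 times and Myocd 2.79 times lower, and Hopx was 1.48 times higher. The RA means of Tbx5 and Myocd lay below the dim mark. Gata4 (-0.16), Nkx2-5 (0.09) and Isl1 (0.22) did not pass.

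**Figure D5:**
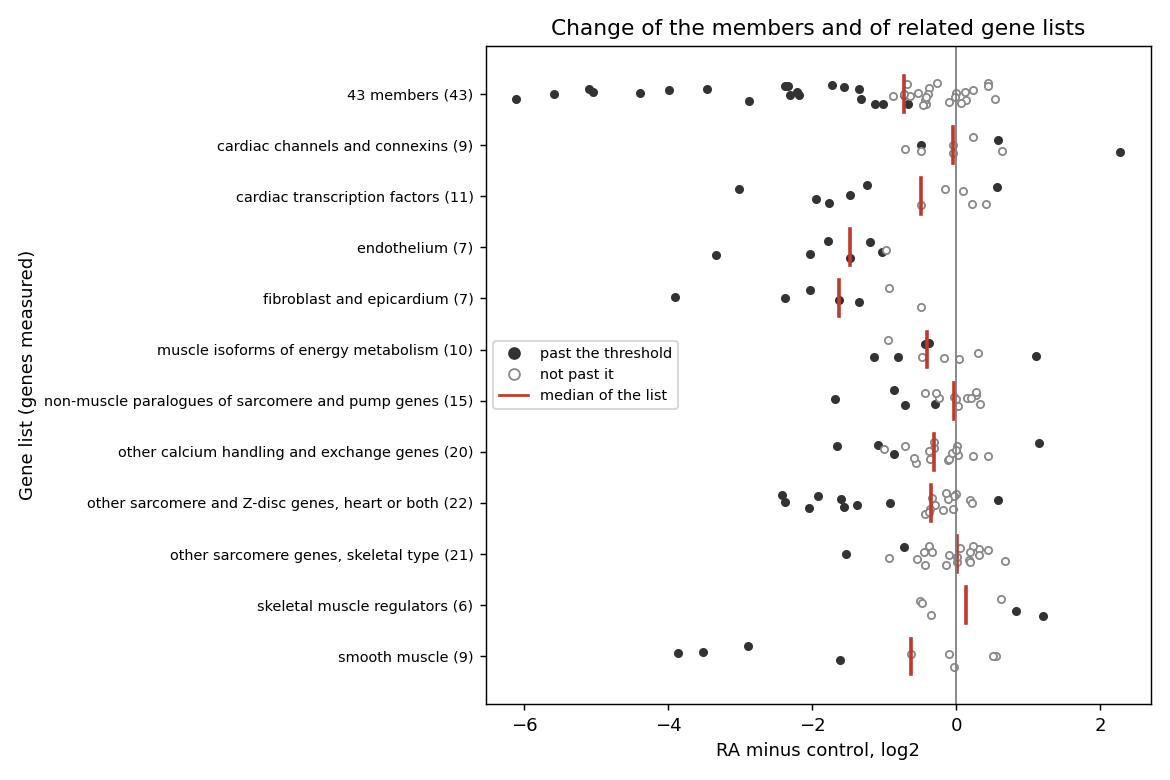
RA minus control on the log2 scale (horizontal axis) for the 43 genes and for 11 related gene lists, with the number measured in brackets, filled points for genes past the threshold and red bars at the list medians. The 43 genes reach further down than any other list shown, to -6.11, while the fibroblast and epicardium list has the lowest median, -1.62.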

How the data were processed

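Per the labels, the authors generated the deposited probe-set intensity values with the Affymetrix GCOS software at default settings. Its version is not given in the sources used here, and the table holds no detection calls. The intensities were not at a common level between the 6 arrays, so log2(intensity + 16) was quantile normalized, after leaving 64 control probe sets out of all tests. Of the other probe sets 34945 have 1 gene symbol in the array annotation, 932 several and 9160 none. A gene was represented by its probe set with the highest mean level, which gave 18193 genes, with no signal filter because several genes described are dim in one group. RA and control arrays were set against each other in R 4.3.3 by limma 3.58.1 (two-sided, lmFit and trended eBayes without covariates) and Benjamini-Hochberg adjustment, threshold 0.05. Differences are RA minus control. The fit was tested on simulated data.

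The 43 genes and all gene lists were chosen with earlier results of these data known. All 43 are named. Of each other list, up to 3 genes called in each direction with the smallest p were named. Myl9, Actn4, Tbx5, Myocd, Gata4, Nkx2-5, Isl1, Actb, Actg1, Myod1, Myog, Myf5 and Myf6 were added after their values were seen. So were Myh11, Mylk, Smtn, Lmod1, Cnn1, Mef2c and Irx4. Alternatives covered scaling, pseudocount, a filter at the 40th percentile, averaging of probe sets, the trend, a replicate block and left-out arrays.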

Additional observations from a re-analysis of the deposited data

How the results depend on the processing

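The count of genes called lower among the 43 was 21 with trimmed mean scaling, with pseudocounts of 1 and 64 and with the replicate number as a block. It was 20 without the trend, where Nexn was lost, and 20 of 40 with the signal filter, which removed Des. The filter used the mean level over all arrays of both groups, so called genes that were dim only with RA could pass it. Csrp3, for example, was kept with means of 4.74 with RA and 8.21 in controls. The filtered count is therefore no check on falls into dim signal. Leaving out 1 array at a time gave 18 to 20 lower and 0 higher, and over all genes 1548 to 1750 lower and 1283 to 1659 higher. Without scaling 531 genes were called lower, against 2015 with quantile normalization. Averaging all probe sets of a gene turned Atp2a2 to a called fall (-0.51) and gave 1 gene called higher. That mean includes the 2 Atp2a2 sets called lower. The replicate numbers did not pair the arrays: same-numbered arrays had correlations of -0.06, -0.01 and -0.02 between their deviations from the group means. With the replicate block 1746 genes were lower and 1582 higher, and none of the 21 calls was lost. The precision is limited by 3 arrays in each group, and dim signal limits how far a fall can be seen.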
